A study of Mus musculus with 4 samples.

Results

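The cone phototransduction genes described here are 8 mouse genes that carry the light signal of cones from the photopigment to the membrane channel and shut it off again: Gnat2, Gnb3, Gngt2, Pde6c, Pde6h, Cnga3, Cngb3 and Arr3. They were chosen by symbol from the 31053 genes of the deposited count tables, and all 8 were found. RNA of single nuclei of the mouse retina, labelled as tissue of the left eye, was counted in 10x droplets, where a unique molecular identifier (UMI) marks each captured molecule. The 4 libraries came from 2 donors aged 2.5 months, labelled wild type, and 2 donors aged 5 months, for which no genotype was given; no treatment was named for either group, and each library was taken as 1 animal. Age was the only named difference, and no purpose was stated for the comparison of ages.

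In a cone, light-activated opsin switches on the G protein transducin, whose alpha, beta and gamma subunits are encoded by Gnat2, Gnb3 and Gngt2. Transducin relieves the inhibitory subunit (Pde6h) from the catalytic subunit (Pde6c) of a cyclic GMP phosphodiesterase, the fall in cyclic GMP closes a channel built from the subunits Cnga3 and Cngb3, and cone arrestin (Arr3) quenches the activated opsin. Rods run the same cascade with a parallel set of genes, and loss of several of the cone genes causes achromatopsia or cone dystrophy in people.

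The genes lie on 7 chromosomes. In the mm10 build with GENCODE M21 gene models, Gnat2 spans chr3:108092789-108101432 (+), Gnb3 chr6:124834240-124840275 (-), Gngt2 chr11:95837216-95845734 (+), Pde6c chr19:38132781-38183958 (+), Pde6h chr6:136923832-136968865 (+), Cnga3 chr1:37214434-37263384 (+), Cngb3 chr4:19280850-19510623 (+) and Arr3 chrX:100605497-100618493 (+). Gngt2 overlaps the antisense gene Abi3 and Pde6h the antisense gene Arhgdib, both of which were also counted; the rule for a read that falls on both genes is not stated in the sources used here. Levels of different genes are therefore not ranked against each other below, only levels of 1 gene between groups of nuclei. Shares listed by size, as for detection, are not a ranking of levels. Whether such reads also shift Gngt2 or Pde6h between classes was not tested.

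RefSeq start sites (GRCm38.p6) were matched for 4 of the 8 genes, Cnga3, Gnat2, Pde6h and Arr3, with 5 windows of the 250 bases before a start. Those of Arr3 and Pde6h are shown because these genes differed most and least between the opsin types below, and that of Gnat2 because it holds the longer motif. The Gnat2 stretch is only the last 30 bases before the start, since GENCODE places a longer first exon of Gnat2 there, and the Pde6h window lies in an intron of a longer GENCODE transcript. Capitals mark TAATC, the core letters bound by the photoreceptor factors CRX and OTX2, on either strand, extended by a further C (on the other strand, a G in front) where present.
Arr3 chrX:100605247-100605496 (+): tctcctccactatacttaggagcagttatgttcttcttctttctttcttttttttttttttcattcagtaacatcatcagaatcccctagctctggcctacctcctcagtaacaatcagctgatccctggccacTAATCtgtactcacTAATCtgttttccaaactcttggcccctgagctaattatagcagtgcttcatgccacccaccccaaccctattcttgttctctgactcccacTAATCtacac
Gnat2 chr3:108093036-108093065 (+): ggacaatccccGGATTAggaaggagctctc
Pde6h chr6:136954273-136954522 (+): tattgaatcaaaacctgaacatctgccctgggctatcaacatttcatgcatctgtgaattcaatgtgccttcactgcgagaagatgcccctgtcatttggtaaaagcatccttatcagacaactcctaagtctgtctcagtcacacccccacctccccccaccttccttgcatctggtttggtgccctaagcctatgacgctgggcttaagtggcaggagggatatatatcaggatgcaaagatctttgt

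TAATC occurred 3 times before the Arr3 start, beginning 116, 102 and 10 bases upstream. Of 32851 windows of this length in the RefSeq table, 19.8% held TAATC at least once and 0.554% held it at least 3 times. TAATCC occurred in the Gnat2 window alone of the 5, beginning 19 bases upstream, and in 6.25% of all windows. The letters AGGTCA, a core motif of nuclear receptors, were in none of the 5 windows and in 14.0% of all. A match is a run of letters and not a measured binding site. The 5-letter search was added after the sequences had been seen.

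The libraries held 19608067 and 28723257 UMIs at 2.5 months and 28042269 and 36320257 at 5 months. Of 32326 barcodes, 30839 nuclei were kept and 29546 fell into 13 classes named from marker genes that exclude all 8 genes; 0.0809% to 0.337% of the barcodes of a pair of libraries occurred in both. Fibroblasts, melanocytes and striated muscle were among the classes, so the tissue labelled retina included neighbouring tissue. The software that counted the reads was Cell Ranger 7.1.0 at 2.5 months and 4.0.0 at 5 months, so software version and age cannot be told apart. Cones were a single cluster of 3203 nuclei, 485 and 649 at 2.5 months and 959 and 1110 at 5 months, in which all 9 cone markers were raised. Values below are the UMIs of a gene per 1000000 UMIs (CPM) summed over the nuclei of a class in a library, with the standard deviation (SD) over the 4 animals. In such sums, fewer nuclei that hold an RNA and less of it per nucleus cannot be told apart.

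Every member was highest in cones, and the cones of each animal lay above every other class of that animal among the 11 classes with at least 20 nuclei in each library. Endothelium (16 to 78 nuclei a library) and striated muscle (3 to 46) are left out of the orders below. Cones held 8.03% of the UMIs of all genes in named nuclei. They held 94.4% of the Arr3 UMIs, 93.7% of those of Pde6c, 89.6% of those of Cnga3, 83.4% of those of Cngb3 and 81.8% of those of Gnat2. The shares were 73.2% for Pde6h, 60.1% for Gnb3 and 57.3% for Gngt2. The share found in cones thus ranged from 57.3% to 94.4%. Such shares also depend on the number and depth of the nuclei of each class. The part of free RNA in the rest was not tested.

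**Figure D1:**
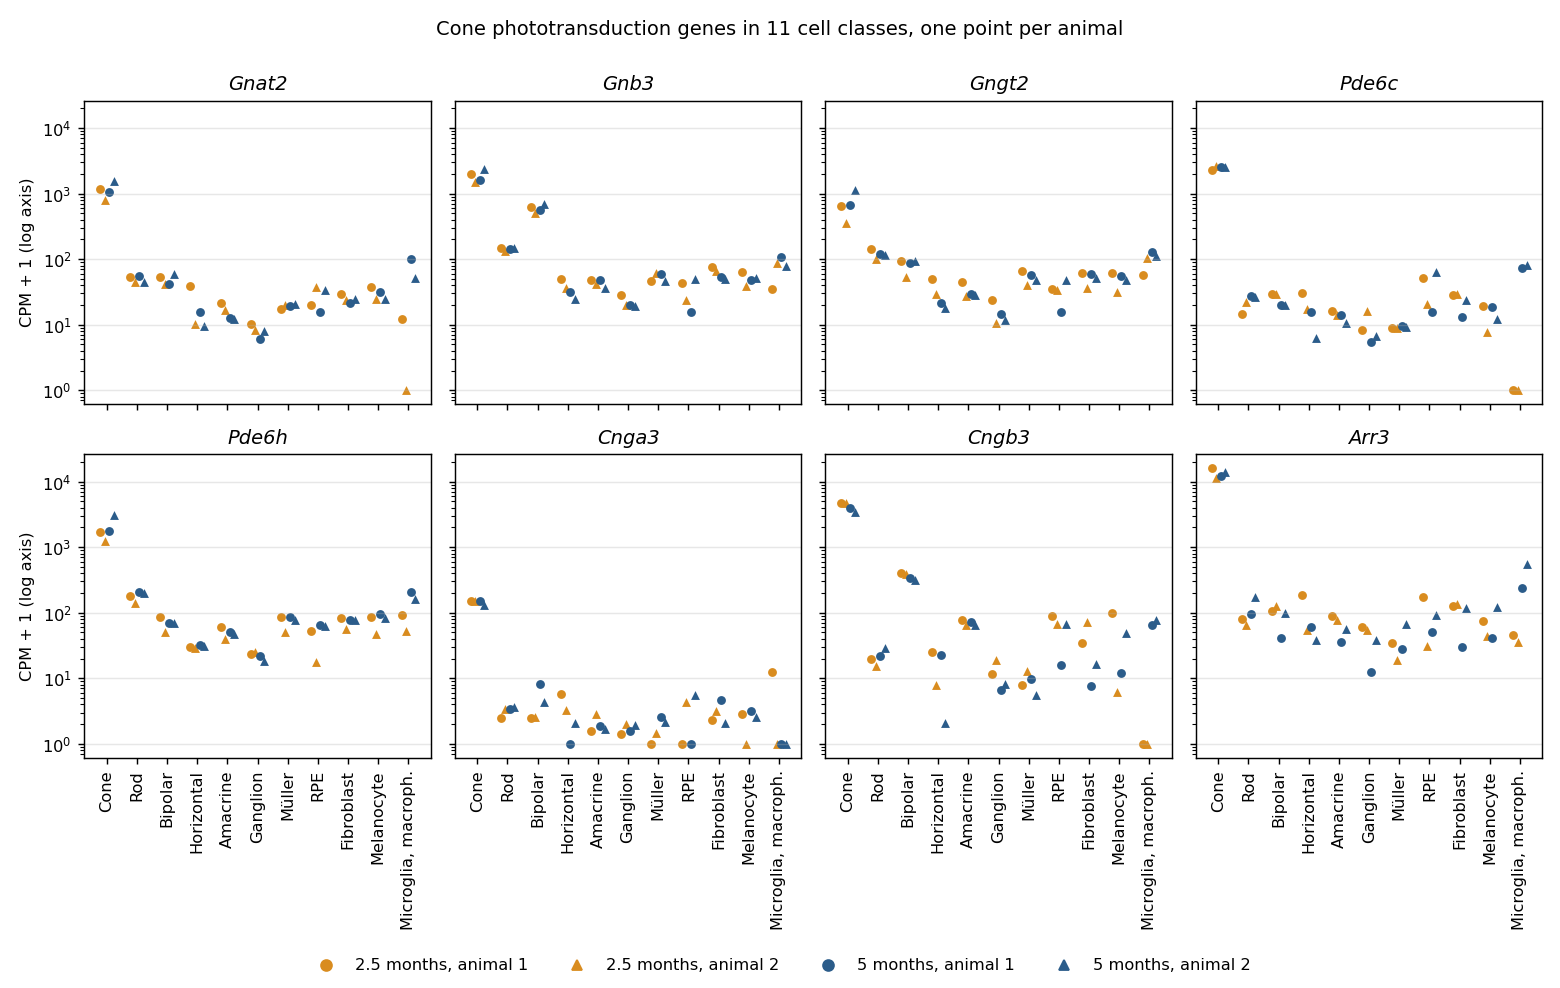
Level of each gene (vertical, CPM + 1 on a log axis, so that 0 is drawn at 1) in 11 cell classes (horizontal), with 1 point per animal coloured by age. Cones are highest in all 8 panels, and in Gnb3 and Cngb3 bipolar cells come next, clear of both neighbours.

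Among the transducin genes Gnat2, the alpha subunit, was at 1173 and 808 CPM in cones at 2.5 months and at 1042 and 1552 at 5 months. The next class was rods at 48.6 ± 5.47 CPM (SD, n = 4), 23.5 times lower, and rods and bipolar cells (47.8 ± 8.16) overlapped. Gnb3, the beta subunit, was at 1981 and 1517 CPM in cones at 2.5 months and at 1639.95 and 2371 at 5 months. Next came bipolar cells at 598 ± 85.9 CPM, with animals between 506 and 704, a median of 32.5% of the cone level. Bipolar cells overlapped neither cones nor rods in Gnb3, and rods were at 142 ± 7.71 CPM. Gngt2, the gamma subunit, was at 657 and 353 CPM in cones at 2.5 months and at 681 and 1117 at 5 months. Rods followed at 118 ± 17.8 CPM, 5.94 times lower, and overlapped microglia and macrophages (99.98 ± 30.3).

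Of the phosphodiesterase genes Pde6c, the catalytic subunit, was at 2287 and 2674 CPM in cones at 2.5 months and at 2547 and 2519 at 5 months, a narrow range. The next class, microglia and macrophages, was at 38.5 ± 44.6 CPM, 65.2 times lower, and overlapped the classes ranked after it. That class is small: Pde6c had no UMI in its 2.5-month libraries of 32 and 20 nuclei, which allows up to 34.0 and 52.3 CPM by counting error. Pde6h, the inhibitory subunit, was at 1723 and 1250.01 CPM in cones at 2.5 months and at 1756 and 3099 at 5 months. Rods followed at 180 ± 30.7 CPM, 10.9 times lower, overlapping microglia and macrophages.

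The channel subunit Cnga3 was at 152 and 151 CPM in cones at 2.5 months and at 151 and 131 at 5 months, so that all 4 animals lay close together. In no other of the 11 classes did its mean exceed the 3.45 ± 2.72 CPM of bipolar cells, 42.3 times lower than cones. In striated muscle, outside the 11, the mean was 23.8 CPM from 4 UMIs in all. Cngb3, the beta subunit, was at 4741 and 4648 CPM in cones at 2.5 months and at 3907 and 3486 at 5 months. Bipolar cells followed at 364 ± 40.5 CPM, 11.5 times lower, then amacrine cells at 68.7 ± 6.98. Bipolar cells overlapped neither neighbour in this order, while amacrine cells overlapped the pigment epithelium. The 2 channel subunits differed in bipolar cells, which held a median of 8.64% of the cone level of Cngb3 and 1.83% of that of Cnga3. Amacrine cells had the same order (1.73% and 0.546%) and rods the reverse (0.471% and 1.60%). The Cnga3 medians rest on 27 UMIs in bipolar cells, 30 in amacrine cells and 25 in rods.

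Cone arrestin, Arr3, was at 16083 and 11459 CPM in cones at 2.5 months and at 12361 and 14108 at 5 months. The next class, microglia and macrophages, was at 216 ± 241 CPM, 62.4 times lower, and ranged from 34.9 to 550 between animals. Rods were at 103 ± 47.6 CPM.

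To compare detection at equal depth, nuclei were thinned to 1000 UMIs each and shallower ones left out, 51 of 3203 cones. Arr3 was then found in 99.8% of cones (95% exact binomial interval 99.5% to 99.9%), Cngb3 in 95.1%, Pde6c in 90.4%, Gnb3 in 84.3%, Pde6h in 82.8%, Gnat2 in 66.5% and Gngt2 in 50.4%. Cnga3 was found in 12.2% (11.1% to 13.4%). Unthinned, at a median of 2315 UMIs, the shares were 99.9% for Arr3, 75.8% for Gngt2 and 28.3% for Cnga3. A thinned cone held a median of 6 of the 8 genes, 98.5% of cones held at least 4, and none held 0. Müller glia, which are not known to use the cascade, held Arr3 in 4.38% of nuclei, Pde6h in 7.56%, Gngt2 in 5.66% and Cnga3 in 0.122%, at a median of 2825 UMIs before thinning. How much of these shares came from free RNA was not tested.

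In Gnat2, Gngt2 and Pde6h, rods lay above Müller glia at equal depth but not in UMIs per nucleus. Thinned to 1000 UMIs, with 2606 of 8751 rods left out as shallower, Pde6h was found in 14.2% of rods and 7.56% of Müller glia, Gngt2 in 10.5% and 5.66%, and Gnat2 in 4.05% and 2.20%. In CPM, too, the rods of every animal lay above the Müller glia of every animal in these 3 genes. The same held for Gnb3, Pde6c and Cngb3, while the classes overlapped in Arr3 and Cnga3. Per 1000 nuclei without thinning, rods held 53.1 to 74.6 UMIs of Gnat2 and Müller glia 48.3 to 80.6. For Gngt2 the ranges were 135 to 162 in rods and 140 to 199 in Müller glia. For Pde6h they were 201 to 277 and 216 to 255. All 3 pairs of ranges overlapped, and rods had fewer UMIs per nucleus in all, with a median of 1231. Unthinned, Pde6h was found in 19.0% of rods and 19.1% of Müller glia. The part of free RNA in the rod values was not tested.

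The rod genes of the same roles were less cleanly divided between the photoreceptors than the cone genes. Within an animal, cones exceeded rods 97.8- to 169-fold in Pde6c, 124- to 326-fold in Cngb3, 82.2- to 202-fold in Arr3 and 48.7- to 106-fold in Cnga3. The transducin subunits and the inhibitor had smaller ratios, 18.5 to 35.0 for Gnat2, 11.5 to 16.2 for Gnb3, 8.67 to 15.3 for Pde6h and 3.54 to 9.89 for Gngt2. In the other direction, rods exceeded cones 9.22- to 16.3-fold in Pde6a and 8.69- to 20.3-fold in Pde6b, the rod catalytic subunits, and 7.87- to 18.7-fold in the channel subunit Cngb1. Rods exceeded cones only 1.60- to 1.69-fold in the rod arrestin Sag, 1.38- to 1.72-fold in the inhibitor Pde6g and 1.63- to 2.10-fold in Gngt1. Cnga1 (5.25- to 9.87-fold), Gnb1 (4.72- to 10.8-fold) and Gnat1 (2.48- to 4.35-fold) lay between. Sag was at 3960 ± 375 CPM in cones beside 6487 ± 655 in rods. The 11 rod markers summed to 3987 to 5936 CPM in cones and to 14765 to 18273 CPM in rods. In Müller glia they summed to 2603 to 4205 CPM, and in ganglion cells to 653 to 1483 CPM. None was at 0 in any of these 4 classes. The part of free rod RNA in the cone values was not tested.

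**Figure D2:**
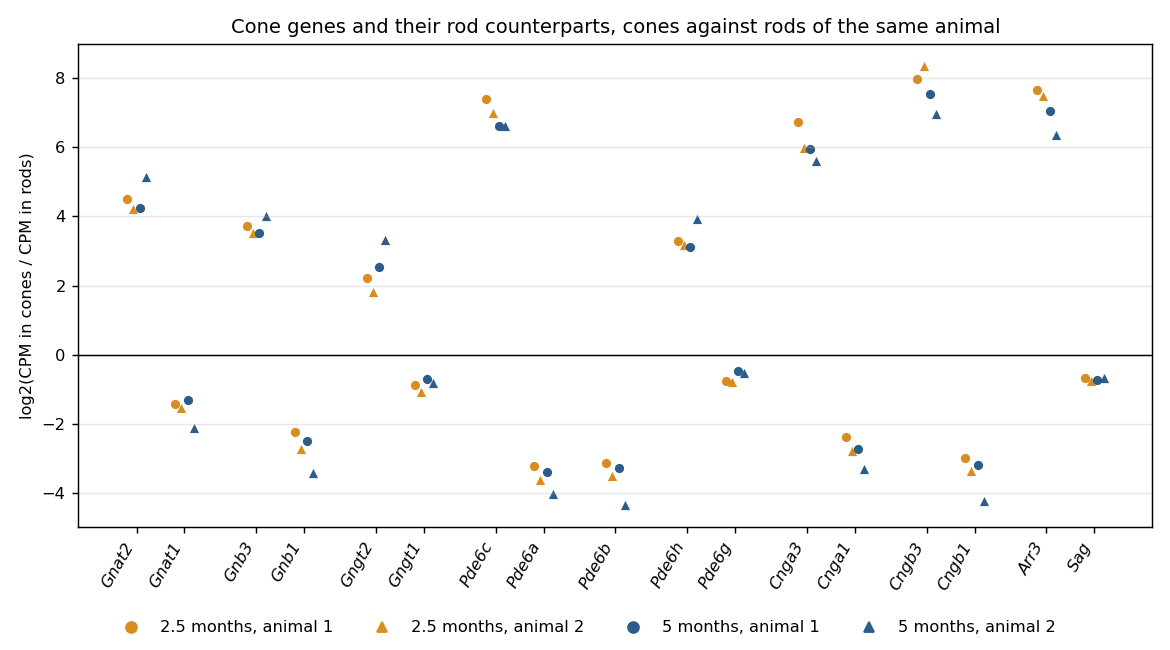
The log2 ratio of the level in cones to that in rods of the same animal (vertical), for each cone gene beside its rod counterpart (horizontal), 1 point per animal. All cone genes lie above 0 and all rod genes below it, with Sag, Pde6g and Gngt1 nearest to 0 among the rod genes.

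Bipolar cells, which receive the photoreceptor signal, formed 8 clusters of 176 to 790 nuclei, and Gnb3 divided them by response type. Types were assigned from markers other than the 8 genes by a rule made after the clusters had been seen. In the rod bipolar cluster, led among its known markers by Prkca and Car8, Gnb3 was at 820 and 735 CPM in the younger and at 855 and 1147 CPM in the older animals. Means in the 4 ON cone bipolar clusters were 823 ± 137, 640 ± 148, 850 ± 184 and 1052 ± 129 CPM (SD, n = 4). In the 2 OFF cone bipolar clusters they were 86.4 ± 23.2 and 102 ± 20.6 CPM, and in an untyped cluster led by Grik1, a glutamate receptor of OFF types, 158 ± 25.4 CPM. The lowest animal of any ON or rod bipolar cluster, at 525 CPM, lay above the highest animal of the other 3 clusters, at 190 CPM. Gnb3 is known as the beta subunit that partners the G protein Go in the mGluR6 cascade of ON bipolar cells.

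Cngb3 divided the bipolar clusters in another way. The 2.5-month animals had 3273 and 2821 CPM and the 5-month animals 2301 and 2446 CPM in 1 ON cone bipolar cluster of 233 nuclei led by Gabrr3, a median of 64.9% of the cone level. In the untyped cluster of 378 nuclei led by Grik1 it was at 1044 and 1168 CPM and at 1014 and 722 CPM, 23.6% of the cone level. Means in the other 6 clusters ran from 6.25 to 106 CPM, with 271.9 CPM in the first 5-month animal of an ON cluster led by Cdh9 as the highest single value. Other members did not follow at that scale: in the Gabrr3-led cluster Cnga3 was at a median of 3.94%, Arr3 at 0.467% and Pde6c at 0.671% of the cone level. In the Grik1-led cluster these medians were 1.53%, 0.454% and 0.610%, and the Cnga3 medians rest on 4 and 6 UMIs in all. Cngb3 was thus high in clusters where Arr3 and Pde6c stayed under 1% of their cone level by median.

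Gnat2 and Gngt2 were raised to a lesser degree in some of these clusters. Gnat2 was at 97.7 ± 22.0 CPM in the ON cluster led by Fam135b, at 98.7 ± 8.67 in the Grik1-led cluster and at 88.5 ± 44.3 in the Gabrr3-led cluster. Its means in the other 5 clusters were 13.3 to 42.0 CPM. Gngt2 was at 168 ± 59.9 CPM in the Grik1-led and 127 ± 48.6 CPM in the Fam135b-led cluster, beside 42.2 to 99.8 CPM in the others, with overlap between animals. In the Fam135b-led cluster Gnat2 stood at a median of 8.84% and Arr3 at 1.26% of the cone level.

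Among 15 amacrine clusters, 4 had Cngb3 well above the rest. Its means were 168 ± 45.5 CPM in the cluster led by Vip, 156 ± 18.2 in that led by Tac2, 155 ± 18.8 in that led by Il1rapl2 and 123 ± 24.6 in that led by Cartpt, with no animal under 87.3 CPM. The median over the 15 cluster means was 22.6 CPM. The cluster led by Olfm3 reached 143 CPM in the first 2.5-month animal and 2.41 CPM in another, so its mean of 50.1 CPM rests on that animal. Gnb3 showed no such division: its amacrine cluster means ran from 32.7 to 54.8 CPM.

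**Figure D3:**
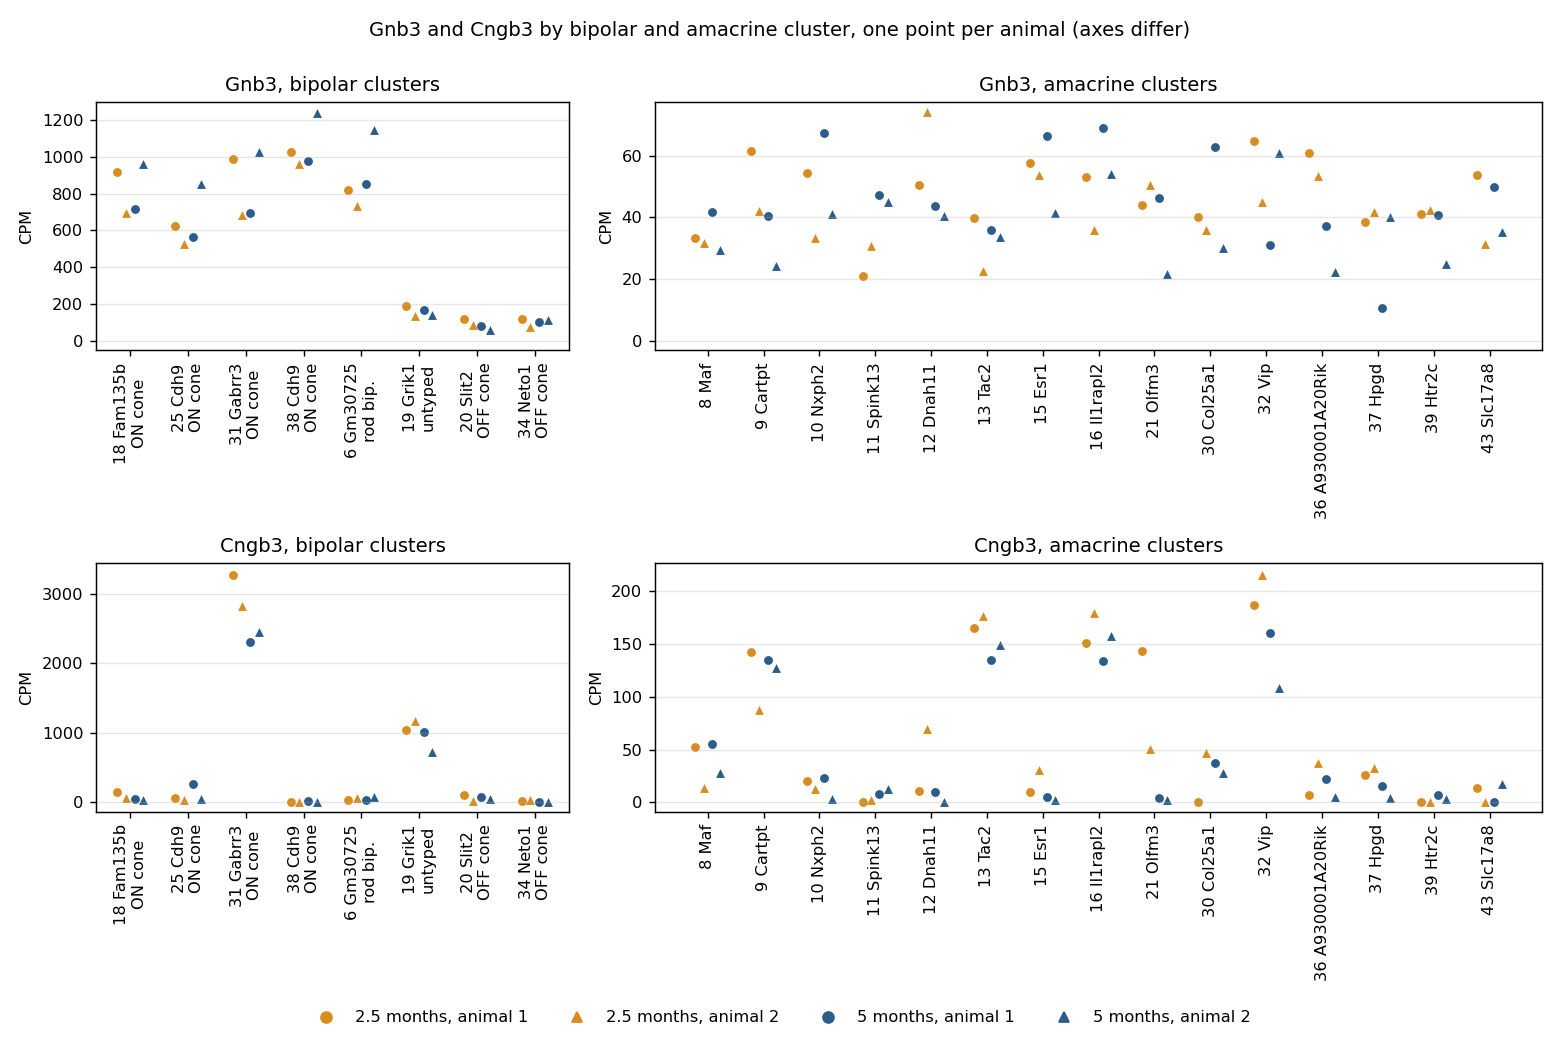
Level of Gnb3 (top) and Cngb3 (bottom) in CPM (vertical, axes differ) in each bipolar (left) and amacrine (right) cluster, named by its number and leading gene, 1 point per animal. Gnb3 is high in the ON and rod bipolar clusters, Cngb3 in the bipolar clusters led by Gabrr3 and Grik1 and, at a lower level, in the amacrine clusters led by Cartpt, Tac2, Il1rapl2 and Vip.

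Mouse cones carry a medium-wavelength opsin (Opn1mw, M), a short-wavelength opsin (Opn1sw, S) or both, in proportions known to vary from dorsal to ventral retina. Cones with at least 3 opsin UMIs were called M-type or S-type where at least 80% of these were from 1 opsin. This gave 1566 M-type cones (48.9%), 460 S-type cones (14.4%) and 1153 mixed cones (36.0%), and 24 cones had fewer opsin UMIs. S-type cones made up 13.2% and 13.1% of cones at 2.5 months and 13.9% and 16.0% at 5 months. The 2 types were compared within animals with edgeR's quasi-likelihood test, with library as a block.

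Arr3, Gngt2 and Gnb3 differed between the opsin types. Arr3 was lower in S-type cones, and Gngt2 and Gnb3 were higher there. Of the 8 members 3 were called at a Benjamini-Hochberg adjusted p under 0.05, beside 5.61% of the 8727 genes tested (2.84% higher and 2.77% lower in S-type cones). The sign was the same in all 4 animals in 4 members, beside 20.8% of the genes tested. The median log2 fold change was 0.07 over the members and 0.02 over all genes tested.

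Arr3 was at 18340 and 14118 CPM in M-type cones at 2.5 months and at 14835 and 17631 at 5 months. In S-type cones of the same animals it was at 10977.5 and 6479, and at 7388 and 8685 CPM. The types did not overlap, and the fitted log2 fold change was -0.96 ± 0.06 (SE, adjusted p = 9.02e-27, edgeR), lower in S-type cones of 4 of 4 animals. Mixed cones were between the types in every animal, at 13805, 9482, 10261 and 11868 CPM in the same order. Cone arrestin RNA thus stepped down from M-type through mixed to S-type cones.

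Gngt2 was at 594, 364, 615 and 1118 CPM in the M-type cones of the 4 animals and at 935, 461, 906 and 1298 CPM in their S-type cones. S-type cones were higher in 4 of 4 animals while the ranges over animals overlapped, with a log2 fold change of 0.42 ± 0.08 (adjusted p = 7.30e-05, edgeR). Gnb3 was at 1787, 1382, 1490.0 and 2221 CPM in M-type and at 2288, 1744, 2047 and 2523 CPM in S-type cones, higher in 4 of 4 animals, with a log2 fold change of 0.34 ± 0.07 (adjusted p = 0.000126, edgeR). Mixed cones lay between the types in all 4 animals in Gnb3 and in 2 of 4 in Gngt2. Both calls rest on comparing types within an animal: without the library term the adjusted p was 0.743 for Gnb3 and 0.870 for Gngt2, and 0.0101 for Arr3.

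The other 5 members were not called. Cngb3 was higher in S-type cones of 4 of 4 animals by a log2 fold change of 0.18 ± 0.06 (adjusted p = 0.0714, edgeR). With at least 5 opsin UMIs and 90% from 1 opsin its value was 0.29 (adjusted p = 0.000531, edgeR), and with at least 2 opsin UMIs all from 1 opsin it was 0.36. Cngb3 was lower in mixed cones (3753 ± 408 CPM) than in both types (4318 ± 685 in M-type, 4846 ± 846 in S-type) in all 4 animals, a difference that was not tested. Pde6h was at -0.02 ± 0.07, but with at least 2 opsin UMIs all from 1 opsin it was called lower in S-type cones (-0.28, adjusted p = 0.0147, edgeR), and with at least 5 and 90% it was at -0.16 (adjusted p = 0.283). For Cnga3, Pde6c and Gnat2 the log2 fold changes were 0.10 ± 0.15, 0.04 ± 0.07 and 0.03 ± 0.08 (SE). The signs of these 4 genes differed between animals, and Cnga3 was higher in S-type cones of 3 of 4 animals.

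Among 15 other genes of the cone pathway, 3 were higher and 1 lower in S-type cones, and Opn1sw and Opn1mw among these had chosen the groups. The remaining 2 were Guca1a (0.49 ± 0.08) and Guca1b (0.62 ± 0.10), activators of guanylate cyclase that restore cyclic GMP. Of the 9 rod counterparts 3 were called, all higher in S-type cones: Sag (0.44 ± 0.06), Pde6g (0.28 ± 0.08) and Gngt1 (0.26 ± 0.07). The 11 rod markers summed to more in S-type than in M-type cones in all 4 animals, at 6330 beside 5776, 4013 beside 3861, 6692 beside 5712 and 4767 beside 4578 CPM. Single markers went both ways: 7 of the 11 had positive values, Gngt1 was called higher, and 1 was called lower, Samd7 (-2.17), which was lower in S-type cones of 4 of 4 animals. S-type cones also had fewer UMIs per nucleus, with medians of 1705 to 2791 beside 2179.5 to 3311 in M-type cones. The part of rod RNA and of depth in the results for Arr3, Gngt2 and Gnb3 was not tested.

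**Figure D4:**
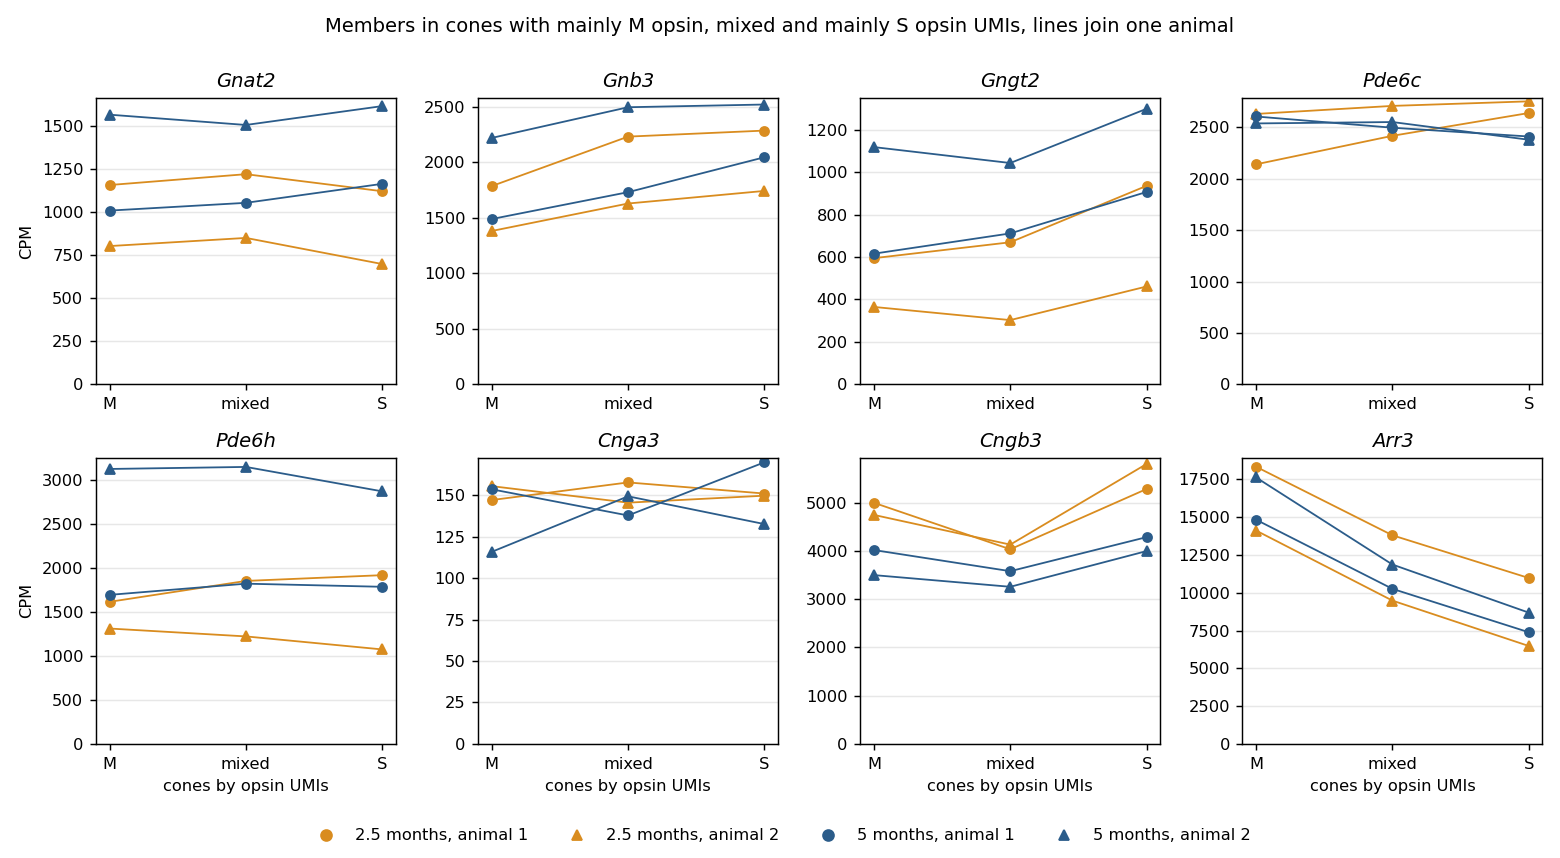
Level of each gene in CPM (vertical, from 0, axes differ) in M-type, mixed and S-type cones (horizontal), with 1 line per animal coloured by age. Arr3 falls from M-type through mixed to S-type cones in all 4 animals, Gnb3 rises in all 4, and the lines for Cnga3 cross.

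No member was called between the ages in cones. edgeR's quasi-likelihood test called 0 of 8 members beside 0.0775% of the 11611 genes tested, and DESeq2 0 of 8 beside 0.191% of 10485. In edgeR 2 of 8 members had an unadjusted p under 0.05, Gngt2 and Pde6h, beside 665 of the 11611 genes tested. The levels per animal are those given above for cones. Gngt2 and Pde6h were higher and Cnga3 and Cngb3 lower in both 5-month animals, so 4 of 8 members did not overlap between the ages, while 36% of all tested genes did not. Gnat2, Gnb3, Pde6c and Arr3 overlapped. The median log2 fold change was 0.12 over the members and 0.01 over all genes tested, with positive values meaning higher at 5 months.

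Gngt2 had a log2 fold change of 0.84 ± 0.31 (SE, adjusted p = 0.837, edgeR), and Pde6h one of 0.71 ± 0.29 (adjusted p = 0.837). Both were highest in the second 5-month animal and lowest in the second 2.5-month animal. Gngt2 passed the threshold where no low-count filter was used (0.86, adjusted p = 0.0175) and without the first 2.5-month animal (1.34, adjusted p = 0.0482), and ranged from 0.45 to 1.34 over the fits that leave out 1 animal. For the other members the values were 0.39 ± 0.26 for Gnat2, 0.20 ± 0.25 for Gnb3, 0.03 ± 0.22 for Pde6c, -0.05 ± 0.28 for Arr3, -0.11 ± 0.19 for Cnga3 and -0.34 ± 0.23 for Cngb3. With 2 animals a group these errors leave room for differences of some size in either direction. None of the 15 other pathway genes and none of the 9 rod counterparts was called by age in cones, and the rod markers summed to overlapping levels at the ages.

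Gene span moved with the age difference over all genes. The median log2 fold change in cones was 0.22 over the 2578 tested genes that span under 10 kb and 0.09 over the 2195 genes of 10 to 20 kb. It was -0.01 over the 3201 genes of 20 to 50 kb, -0.10 over the 1735 genes of 50 to 100 kb and -0.11 over the 1892 longer genes. The 3 shortest members, Gnb3 (6.04 kb), Gngt2 (8.52 kb) and Gnat2 (8.64 kb), all had positive values, and the longest, Cngb3 (230 kb), had the lowest. Pde6h, with 45.0 kb in GENCODE, lay far above the median of its span class. Counted from its RefSeq start, Pde6h is shorter and falls in the class of 10 to 20 kb, with a median of 0.09. The part of gene span in the members' values was not tested.

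**Figure D5:**
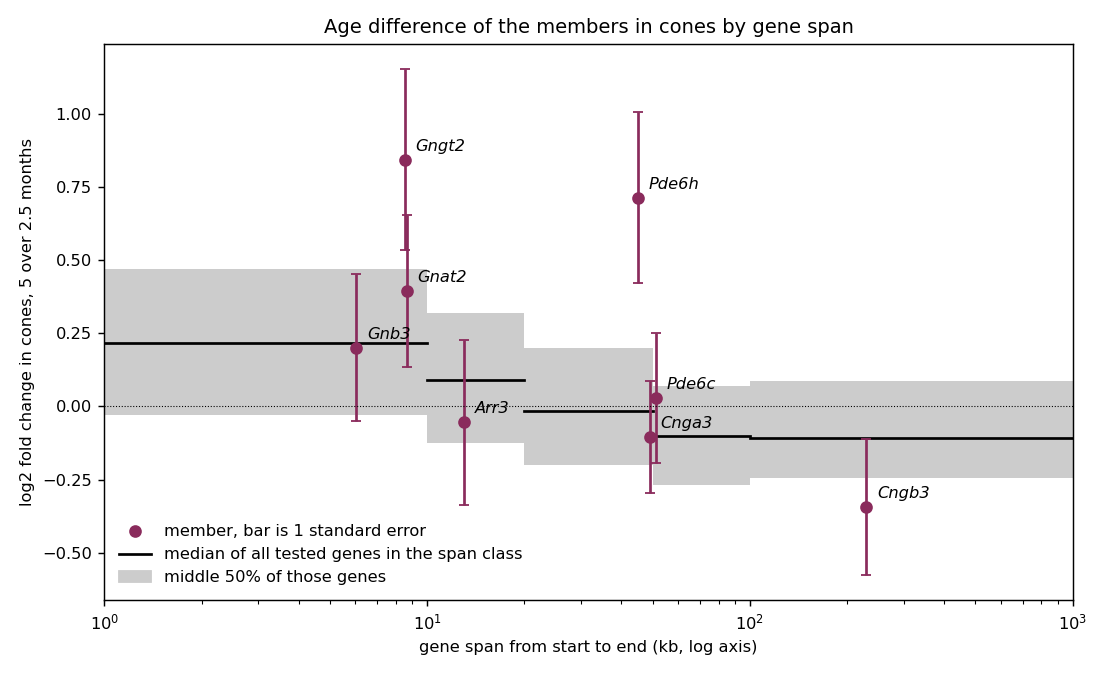
Log2 fold change of each member in cones, 5 over 2.5 months (vertical, with 1 standard error), against the span of the gene in kb (horizontal, log axis). Black lines and grey bands give the median and the middle 50% of all tested genes of each span class (under 10 kb drawn from 1, over 100 kb drawn to 1000), and only Gngt2 and Pde6h have error bars that lie wholly above the band of their class.

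In the other 10 classes, 65 tests of members were made, since a gene was tested only where it passed the low-count filter, and a gene that passes because of 1 age had to differ there. edgeR called 0 of the 65 (13 had an unadjusted p under 0.05). Of all genes tested it called 0.0491% in rods, 0.0685% in bipolar, 0.0325% in amacrine, 0.0974% in horizontal and 0.0596% in ganglion cells, and 0.0946% in Müller glia. In the pigment epithelium it called 0.0475%, in melanocytes 0.0598%, in fibroblasts 0.00798% and in microglia and macrophages 0%. An unadjusted p under 0.05 was found for 798 of 12222 genes in rods, 776 of 11687 in bipolar and 1323 of 15381 in amacrine cells. The counts were 492 of 7188 in horizontal cells, 883 of 13415 in ganglion cells and 892 of 12686 in Müller glia. They were 388 of 6317 in the pigment epithelium, 521 of 10033 in melanocytes, 873 of 12526 in fibroblasts and 229 of 2736 in microglia and macrophages. DESeq2 called 2 members, in classes where it called 1.76% and 0.428% of all genes. These were Arr3 in microglia and macrophages, with a log2 fold change of 3.80 (adjusted p = 0.0112, DESeq2; 0.139 in edgeR), and Cngb3 in fibroblasts, with -2.14 (adjusted p = 0.0462, DESeq2; 0.261 in edgeR). Arr3 in microglia and macrophages was at 45.3 and 34.9 CPM in the younger and at 235 and 550 CPM in the older animals, in 20 to 57 nuclei a library. These levels rest on 4 and 2 UMIs at 2.5 months and on 26 and 108 at 5 months. Arr3 passed the low-count filter there through the 5-month animals alone, so its p-values are no evidence of a difference between the ages. Cngb3 in fibroblasts was at 33.8 and 70.3 CPM and at 6.49 and 15.7 CPM. In microglia and macrophages the 9 cone markers summed to 306 and 314 CPM at 2.5 months, with 4 of 9 at 0 in each. At 5 months they summed to 696 and 591 CPM, beside 655 to 842 CPM over the 4 animals in amacrine cells. The part of cone RNA in the Arr3 result was not tested.

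Across the 44 sums of 11 classes and 4 animals, the genes whose levels resembled each member most were found by Pearson correlation of log2(CPM + 5) over 18397 genes. The sums share libraries, depth and free RNA, so the correlations are descriptions. Gnat2 was most like Opn1mw (0.960), Pde6c, Opn1sw, Arr3 and Kcne2, and Pde6c most like Opn1mw (0.963), Arr3, Gnat2, Wdr95 and Otop3. Arr3 was most like Pde6c (0.961), Opn1mw, Otop3, Wdr95 and Fbxw21. Gngt2 was most like Pde6h (0.940), Dgkd, Opn1sw, Guca1a and Guk1, and Pde6h most like Opn1sw (0.948), Gngt2, Gnat2, Prdm1 and Enam.

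Cnga3, Gnb3 and Cngb3 had other neighbours. Cnga3 was most like Plcz1 (0.963), AC158974.1, Gm38389, En2 and Il9r. Its mean in every class but cones was 3.45 CPM or less, under the 5 CPM added before the logarithm. The Cnga3 correlations therefore rest mainly on the cone sums. Gnb3 was most like Gm4792 (0.935), Gm14280, Nphs1, 5330413P13Rik and Gm32884, none of them a member, and Cngb3 most like Gm32884 (0.900), D930007P13Rik, Nphs1, Kcne2 and Pde6c. Between members, the correlation was highest for Pde6c with Arr3 (0.961) and lowest for Gngt2 with Cngb3 (0.709).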

How the data were processed

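Raw UMI counts per gene and barcode were deposited by the authors; per the file headers they were made with Cell Ranger 7.1.0 (2.5 months) or 4.0.0 (5 months), and per the submitters' processing notes on mm10. The sources used here do not say whether intron reads were included. Kept nuclei had at least 300 genes and no more than 5% of UMIs from mitochondria. Doublets called by scrublet (expected rate 0.06) were removed: 3 and 1 nuclei at 2.5 months, where the caller had not worked, and 672 and 784 at 5 months. Nuclei of all libraries were clustered together (scanpy 1.11.5, 2000 variable genes without the 8 members, 30 components, 15 neighbours, Leiden resolution 1, 47 clusters). A name needed at least 3 raised markers, and 1293 nuclei stayed unnamed. Names stand for nuclei like that type.

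Counts were summed per class and library. Tests were 2-sided edgeR 4.0.16 quasi-likelihood fits in R 4.3.3 (TMM scaling, filterByExpr) over all genes, with Benjamini-Hochberg adjustment at 0.05. They were also run on simulated cone counts, with larger changes than those of any member in cones and 1 common spread for all genes. Such a run does not measure the power for smaller changes. DESeq2 1.42.0, RLE scaling, no filter, leaving out animals, a replicate block, thinned sums, other doublet handling and other opsin thresholds were alternatives. Nothing in the labels says more than donor number about separate animals, so p-values measure only the spread between these libraries. Intervals and floors (3 counts) cover counting error only. All 8 members are named in the results for level by class, thinned detection in cones, opsin type and age in cones. For each member the 5 genes with the highest correlation are named. GENCODE M21 matched 30934 of 31053 gene IDs and was not used for counting. Members, lists and markers were chosen with earlier results of these data known.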

Additional observations from a re-analysis of the deposited data

Results flagged for a closer look

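The difference between S-type and M-type cones had opposite signs at the ages in 2 members. Gnat2 was lower in S-type cones of both 2.5-month animals, with a mean log2 ratio of -0.12, and higher in those of both 5-month animals (0.13). Pde6c was higher in S-type cones of both 2.5-month animals (0.18) and lower in those of both 5-month animals (-0.10). Neither difference between the ages was tested, and neither gene was called between the opsin types.

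A cluster of 13 nuclei was left without a name because it held under 20 nuclei. Its members summed to 11409 CPM, beside 25859.8 in cones and 1263 in bipolar cells, the highest named class other than cones. Arr3 was at 6019.8 CPM and Cngb3 at 2080.4 CPM there. It carried 8 of 9 raised Müller markers and 4 raised cone markers. Of its nuclei 4 and 9 came from the 2.5-month libraries and 0 from the 5-month libraries, where called doublets had been removed. By their nearest nuclei, 43 removed doublets were assigned to this cluster. Relative to the median nucleus of their library, its nuclei had a median depth of 2.87. Whether they are mixed nuclei was not tested. The cluster entered no comparison.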

How the results depend on the processing

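The count of members called by age in cones was 0 in the main fit, 1 with no low-count filter and 0 to 1 over the fits without 1 animal. All genes called by age numbered 9, beside 20 with DESeq2, 82 with no filter, 39 with the replicate block and 7 to 68 without 1 animal. The deviations of same-numbered donors from the mean of their age had a correlation of -0.00653. With 2 libraries an age, both donor numbers give the same value by construction. Whether same-numbered donors are related cannot be told from it. In the other classes 0 members were called, beside 2 with DESeq2, 4 with called doublets kept, 8 with no filter and 3 with the replicate block. The 4 were higher at 5 months, where most doublets had been called. They lay in bipolar cells (all genes: 8 higher, 3 lower of 12011), Müller glia (18, 4 of 12874) and melanocytes (6, 3 of 10482). The 3 with the block were lower, in amacrine cells (47 higher, 38 lower of 15381), fibroblasts (47, 56 of 12526) and ganglion cells (24, 24 of 13415). With no filter 3 of the 8 were in microglia and macrophages (212 higher, 7 lower of 16116). The 3 members called by opsin type became 5 with at least 2 opsin UMIs all from 1 opsin (Cngb3 and Pde6h added) and 1 without a library term, and were 3 in each fit without 1 animal. All genes called by opsin type numbered 490, beside 214 with DESeq2, 159 without a library term and 337 to 415 without 1 animal. The median over members of the share of cones with a UMI was 96.7% unthinned.

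Signs turned only in values that were not called. By age, Pde6c was at -0.0035 with called doublets kept and at -0.025 with an equal share of doublets removed, an alternative chosen after seeing the data. By opsin type, Gnat2 was at -0.082 with at least 2 opsin UMIs all from 1 opsin, at -0.031 with at least 5 and 90%, and at -0.070 with no filter, where Pde6c was at -0.058. Without 1 animal, the age values ranged from -0.083 to 0.44 for Gnb3, -0.089 to 0.16 for Pde6c and -0.27 to 0.20 for Arr3, and the opsin values from -0.041 to 0.078 for Gnat2, -0.044 to 0.086 for Pde6c and -0.10 to 0.043 for Pde6h. Cngb3 in amacrine cells was at 68.7 CPM, beside 88.9 with called doublets kept, 61.2 with an equal share of doublets removed and 51.0 as a mean of per-nucleus CPM. Depth limits the values of Cnga3 outside cones and those of small classes such as microglia.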
